A study of Mus musculus with 6 samples.

Results

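Genes for proteins that hepatocytes secrete into the blood were followed together with Afp through every cell type of mouse liver tumors. The group held 10 genes of the 34099 in the feature tables, chosen by symbol: Alb, Apoa1, Apoa2, Ttr, Fga, Fgb, Trf, Cp, Tm4sf4 and Afp. All 10 were found in all 6 libraries. They were chosen with their levels in the cell types already known, so levels across cell types are given as a description without a test. Tumor tissue came from 3 control mice and 3 stress mice, all wild-type male C57BL/6J mice of 8 weeks, with 1 library per mouse made on the 10x Genomics single-cell platform. Stress mice went through chronic unpredictable mild stress before cells of the murine hepatocellular carcinoma (HCC) line H22 were injected into the liver, and control mice bore H22 tumors without that treatment. The tumors of both groups thus derive from a single cell line that had been grown as ascites and pooled before injection, and the host's own liver surrounded them.

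The deposited values are counts of unique molecular identifiers (UMIs), tags that mark each captured RNA molecule once. The annotation of the authors placed 58794 of 61374 barcodes in 28 clusters and 10 cell types, and a further 2580 barcodes were not annotated. Median UMIs per annotated cell ranged from 7166 to 20478 between mice. The matrix headers name Cell Ranger 9.0.0 for all control libraries and 7.1.0 for all stress libraries, so this difference and stress cannot be told apart. Of 60941 distinct barcode sequences, 426 occurred in more than 1 library. Levels are given as CPM, the UMIs of a gene per 1000000 UMIs of the same cells, without division by transcript length, since each UMI stands for 1 molecule whatever its length. In summed cells, fewer cells that express a gene and less RNA per cell cannot be told apart.

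Hepatocytes make most of the protein of blood plasma. Albumin (Alb) carries fatty acids and keeps water in the vessels, apolipoproteins A-I and A-II (Apoa1, Apoa2) form high-density lipoprotein, transthyretin (Ttr) carries thyroid hormone and retinol-binding protein, and the fibrinogen chains (Fga, Fgb) form the clot. Transferrin (Trf) carries iron and ceruloplasmin (Cp) carries copper and oxidizes iron, and both are also made outside the liver. Tm4sf4 is a membrane protein of the tetraspan family found in liver and bile duct cells, and is the only member whose protein is not secreted. Alpha-fetoprotein (Afp) is the fetal relative of albumin, is silenced in the liver after birth, and returns in many HCCs.

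Alb and Afp are neighbors in the mouse genome. In GRCm38 (GENCODE M21), Alb lies at chr5:90460897-90476602 and Afp at chr5:90490737-90508907, both on the plus strand with 14134 bases between them. Fga at chr3:83026076-83033627 (plus) and Fgb at chr3:83040141-83049863 (minus) are 6513 bases apart. The position of Ttr is not reported here. The others lie singly, Apoa1 at chr9:46228580-46230466 (plus), Apoa2 at chr1:171225054-171226379 (plus), Cp at chr3:19957054-20009145 (plus), Tm4sf4 at chr3:57425314-57441677 (plus) and Trf at chr9:103204001-103230444 (minus).

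Promoters of 4 members are shown because they belong to the genes that the comparisons below turn on, Alb beside its neighbor Afp, and Fgb beside Tm4sf4. Each line gives the 250 bases before the RefSeq start (GRCm38.p6), read 5′ to 3′ on the strand of the gene, at chr5:90460620-90460869 (plus) for Alb, chr5:90490464-90490713 (plus) for Afp, chr3:83049864-83050113 (minus) for Fgb and chr3:57425160-57425409 (plus) for Tm4sf4. Capitals mark CCAAT or its reverse complement ATTGG, the letters of the CCAAT box, a common promoter element, which was chosen with the sequences in view.
Alb: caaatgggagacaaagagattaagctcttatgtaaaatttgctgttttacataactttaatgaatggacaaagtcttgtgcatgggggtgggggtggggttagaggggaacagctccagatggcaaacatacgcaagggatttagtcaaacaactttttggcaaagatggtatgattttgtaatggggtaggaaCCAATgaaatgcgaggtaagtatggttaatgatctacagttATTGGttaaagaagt
Afp: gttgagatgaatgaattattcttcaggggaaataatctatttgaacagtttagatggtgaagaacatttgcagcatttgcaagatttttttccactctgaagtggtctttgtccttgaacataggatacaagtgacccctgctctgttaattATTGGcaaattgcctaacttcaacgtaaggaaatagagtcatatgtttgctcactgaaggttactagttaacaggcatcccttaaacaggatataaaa
Fgb: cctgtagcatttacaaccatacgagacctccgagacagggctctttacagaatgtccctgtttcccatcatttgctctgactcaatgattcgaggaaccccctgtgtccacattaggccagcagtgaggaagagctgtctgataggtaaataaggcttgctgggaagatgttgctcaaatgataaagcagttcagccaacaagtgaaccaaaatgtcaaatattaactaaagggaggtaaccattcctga
Tm4sf4: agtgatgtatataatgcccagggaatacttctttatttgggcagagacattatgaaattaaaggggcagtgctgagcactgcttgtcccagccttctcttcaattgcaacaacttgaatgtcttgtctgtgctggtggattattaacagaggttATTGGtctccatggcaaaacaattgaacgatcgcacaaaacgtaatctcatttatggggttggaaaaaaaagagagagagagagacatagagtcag
The motif, searched on both strands, occurred in 5 of the 8 members with a promoter entry, the other 2 of these 5 being Apoa2 and 1 of the starts of Cp, and not in Apoa1, Fga or Fgb. Of all 32851 promoters of this length, 33.8% held it. Afp and Alb both hold the motif although their levels in the tumors differ widely, and a match of letters says nothing about binding.

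Afp was the most abundant member, and most of its UMIs lay in tumor cells. Of 83563 UMIs of the 10 members in annotated cells, 69074 (82.7%) were Afp, and 93.8% of those were in tumor cells. Tumor cells also held most UMIs of all genes, 484969068 of 558251856 in control mice and 362027661 of 466063319 in stress mice. In tumor cells Afp stood at 54.3, 90.6 and 63.0 CPM in control mice 1, 2 and 3 and at 76.4, 107 and 77.8 CPM in stress mice 1, 2 and 3. Every mouse had it at this level, and the groups overlapped because control mouse 2 was above stress mice 1 and 3. At least 1 Afp UMI was seen in 21145 of 29638 tumor cells, 71.3% with an exact binomial 95% interval of 70.8% to 71.9%, which covers counting error only. That share depends on the depth of the cells, since tumor cells held a median of 27716 UMIs. After thinning each cell to 1000 UMIs, 6.88% of 29314 tumor cells still held Afp, against 3.80% of 342 M-MDSCs, 2.02% of 1285 DCs, 0.554% of ECs and 0.405% of monocytes.

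**Figure D1:**
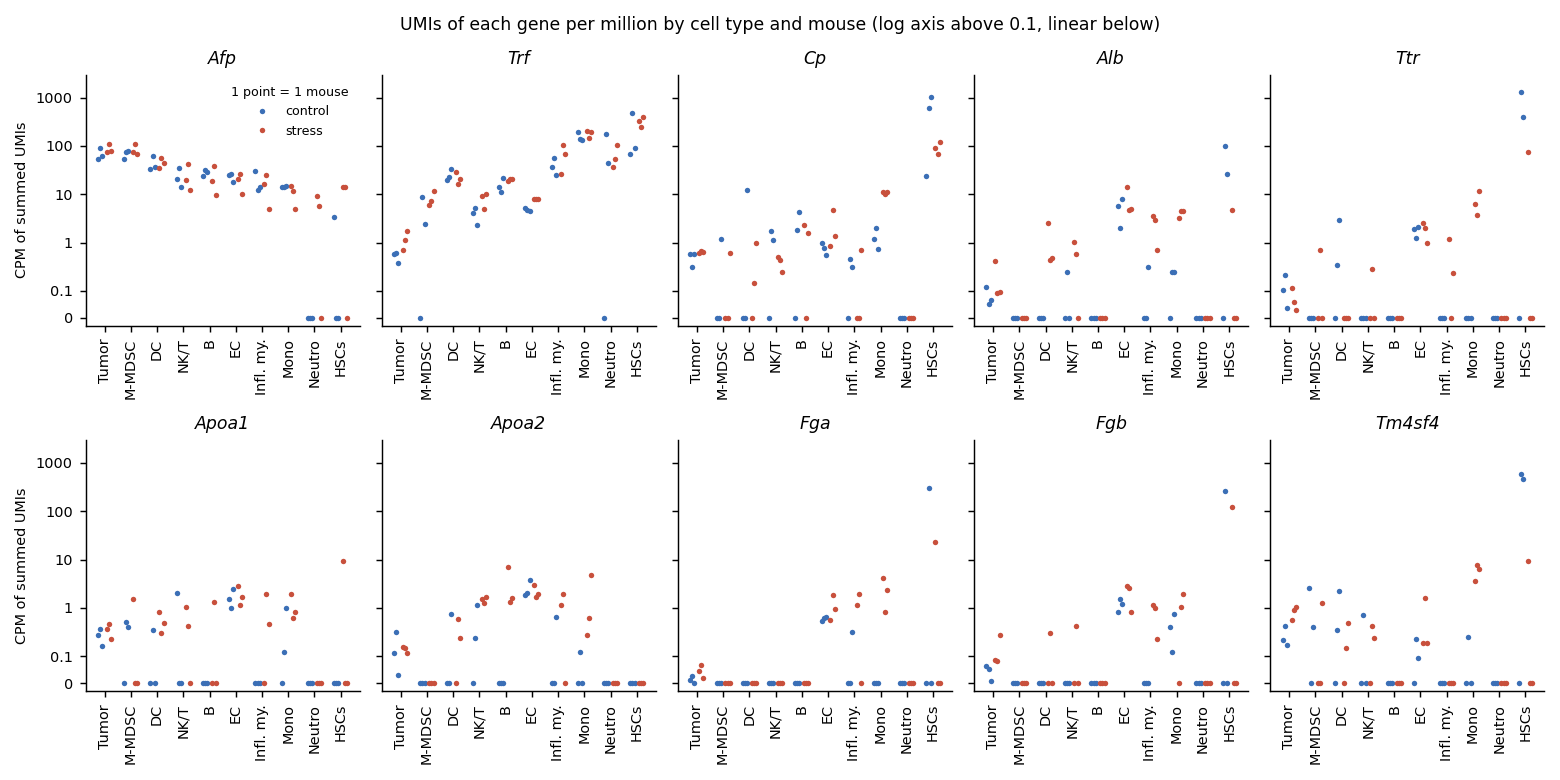
Levels of the 10 members in the 10 annotated cell types, with a panel for each gene, cell types on the x axis and CPM of summed UMIs on the y axis (log scale above 0.1, linear below). Each point is 1 mouse, colored by group. Afp is highest in tumor cells and M-MDSCs, and Trf in monocytes and HSCs. Alb, Cp, Ttr and Tm4sf4 have their highest points in the HSCs of control mice 2 and 3. Fga and Fgb have their highest point in the HSCs of control mouse 2 and are at 0 in those of control mouse 3.

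The 10 tumor clusters differed in Afp level. Pooled over mice, Afp ranged from 42.9 CPM in cluster 6 to 128 CPM in cluster 21, with 112 CPM in cluster 1. Cluster 6 was the lowest tumor cluster in all 6 mice, and cluster 21 was the highest in 5 of 6, cluster 1 being highest in stress mouse 3. Within a mouse the highest cluster exceeded the lowest by 2.74 to 3.79 times. Cluster 21 of stress mouse 2 held the highest value of these, 205 CPM. The clusters were made from the same cells and genes, so these are descriptions of the annotation and carry no test.

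Afp was also found outside the tumor cells. Pooled Afp was 79.3 CPM in M-MDSCs (monocytic myeloid-derived suppressor cells), slightly above the 76.5 CPM of tumor cells. Lower levels were 50.7 CPM in DCs (dendritic cells), 29.9 in NK/T cells, 23.1 in B cells, 20.5 in ECs (endothelial cells), 13.8 in inflammatory myeloid cells and 10.8 in monocytes. It was 5.60 CPM in HSCs (hepatic stellate cells) and 2.57 in neutrophils. Clusters of a single cell type lay far apart. DC cluster 19 held 76.2 CPM and DC cluster 20 held 4.52, and EC cluster 16 held 59.0 CPM where EC cluster 2 held 2.41. Krt18, a keratin of epithelial and carcinoma cells, stood at 315 CPM in cluster 19 and at 16.9 in cluster 20, and at 263 CPM in cluster 16 and 15.2 in cluster 2. Barcodes called doublets by Scrublet, which marks profiles that resemble a mixture of 2 cells, made up 63.1% of M-MDSCs, 47.3% of cluster 16 and 36.8% of cluster 19, against 1.40% of tumor cells. They also made up 89.1% of EC cluster 24, where Afp was at 3.55 CPM and Krt18 at 8.13.

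**Figure D2:**
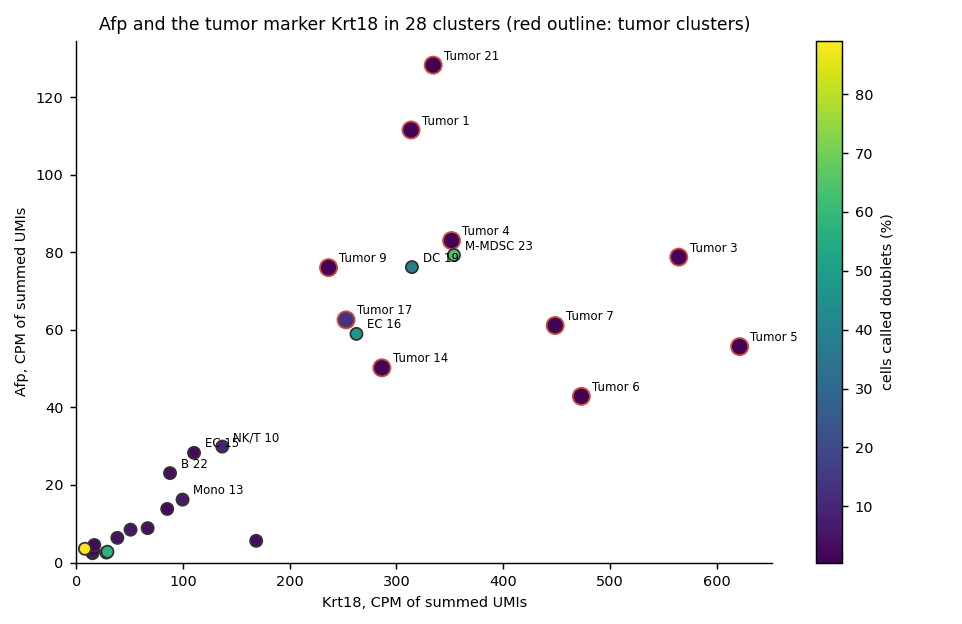
Afp (y axis) against the tumor marker Krt18 (x axis), both as CPM of UMIs summed over all mice, in the 28 clusters. Each point is a cluster, its color gives the percentage of cells called doublets and a red outline marks the 10 tumor clusters. Non-tumor clusters with Afp over 50 CPM, M-MDSC cluster 23, DC cluster 19 and EC cluster 16, are the ones with Krt18 over 250 CPM and over 35% called doublets.

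Among ECs, Afp sat in cells that also held tumor transcripts. The 639 ECs with an Afp UMI had a median of 28945 UMIs, 81.7% of them held Krt18 and 76.1% were called doublets. The other 10794 ECs had a median of 4379.5 UMIs, 6.96% with Krt18 and 5.14% called doublets. Without called doublets, Afp was lower at 5.02 CPM in ECs, 5.42 in inflammatory myeloid cells, 3.47 in monocytes, 5.04 in NK/T cells and 9.71 in DCs, while tumor cells kept 76.5 CPM. The other types moved less, from 23.1 to 18.2 CPM in B cells, from 79.3 to 90.5 in M-MDSCs, from 5.60 to 5.72 in HSCs and from 2.57 to 2.94 in neutrophils. Without called doublets and without any cell that held a UMI of the tumor markers Epcam, Krt18, Krt8 or Cldn6, Afp was 1.77 CPM in ECs, 3.01 in inflammatory myeloid cells, 2.59 in monocytes, 2.62 in NK/T cells, 2.57 in DCs, 5.86 in B cells, 2.32 in neutrophils and 1.09 in HSCs. In the 79 M-MDSCs left by that selection no Afp UMI was found. The 618 tumor cells left by the same selection held 65.4 CPM.

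Most Trf UMIs came from monocytes. Of its 9928 UMIs, 68.6% were in monocytes, where it stood at 194, 141 and 132 CPM in control mice and 204, 145 and 192 CPM in stress mice. All 6 mice lay within that range, and the groups overlapped. After thinning to 1000 UMIs, 13.5% of monocytes held Trf, with 12.5% of 128 HSCs and 10.9% of 175 neutrophils close to that share. Tumor cells, which had the largest number of cells, were lowest with 0.0853%. Monocyte cluster 11 was highest with 206 CPM, and clusters 12 and 13 had 135 and 133 CPM. Lower levels were found in neutrophils (84.9 CPM), inflammatory myeloid cells (52.1), DCs (20.8), B cells (18.9), M-MDSCs (6.57), ECs (6.52) and NK/T cells (6.41), and tumor cells were lowest with 0.789 CPM. The last 3 before tumor cells were closer to each other than their spread over mice, 4.56 to 8.11 CPM in ECs.

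Trf in HSCs was high and uneven, 66.7, 488 and 90.8 CPM in control mice and 335, 252 and 399 CPM in stress mice. Those values rest on few cells, 23, 6 and 8 (control) and 26, 15 and 50 (stress), so HSCs were not tested. Leaving out 8 cells of this class that are described below gave 66.7, 64.8 and 0 CPM in control mice and 77.5, 252 and 399 CPM in stress mice. Control mice 2 and 3 then had only 3 and 4 HSCs, with 3 and 0 Trf UMIs among 46307 and 53297 UMIs. Other genes of iron handling were ordered differently. Fth1, the ferritin heavy chain that stores iron, was at 18086 CPM in monocytes and 2469 CPM in tumor cells but highest in inflammatory myeloid cells, at 44399 CPM. Slc40a1, the iron exporter ferroportin, was at 14.0 CPM in monocytes, 0.383 in tumor cells, 75.1 in ECs and 111 in inflammatory myeloid cells. Tfrc, the receptor that takes up transferrin, was at 54.7 CPM in tumor cells and 18.8 CPM in monocytes, the opposite order to Trf.

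Cp was spread more widely than Trf. Its 1222 UMIs were divided among tumor cells (38.3%), monocytes (25.3%), HSCs (23.3%) and ECs (9.08%). Because tumor cells hold most UMIs of the libraries, Cp reached only 0.553 CPM in them. In monocytes it was at 1.20, 1.97 and 0.742 CPM in control mice and 11.3, 10.1 and 11.4 CPM in stress mice, every stress mouse being above every control mouse. In HSCs it was at 23.3, 618 and 1011 CPM in control mice and 92.1, 67.5 and 122 CPM in stress mice. Leaving out the 8 cells described below gave 23.3, 130 and 0 CPM in control mice and 75.1, 67.5 and 122 CPM in stress mice. The values of control mice 2 and 3 then rest on 6 and 0 Cp UMIs in 3 and 4 cells.

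The remaining 7 genes, Alb, Apoa1, Apoa2, Ttr, Fga, Fgb and Tm4sf4, together had 3339 UMIs in 58794 cells. In 56972 cells none of the 7 was seen, and 1673 cells held just 1 of them. In tumor cells, Alb had 119 UMIs in 84 of 29638 cells, at 0.123, 0.0527 and 0.0677 CPM in control mice and 0.419, 0.0917 and 0.0964 CPM in stress mice. The neighboring Afp was at 76.5 CPM in the same pooled cells where Alb was at 0.14. Apoa1 reached 0.307 CPM in tumor cells, Apoa2 0.149, Ttr 0.0968, Fgb 0.0826 and Fga 0.0260. Tm4sf4 was the highest of the 7 in tumor cells at 0.496 CPM. Alb had no UMI in B cells, M-MDSCs or neutrophils, where 3 UMIs, the limit that a count of 0 allows, would be 0.824, 0.352 and 2.57 CPM.

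Several transcription factors that drive these genes in hepatocytes were nearly absent from the tumor cells as well. Hnf4a was at 0.0213 CPM, Foxa2 had 1 UMI and Foxa1 had none. Cebpa was at 2.39 CPM, while Cebpb, which responds to inflammation, was at 287 CPM. Of 2 repressors of Afp in the adult liver, Zbtb20 was at 93.3 CPM and Zhx2 at 5.93 CPM in the same cells. Among oncofetal genes that accompany Afp in fetal liver, Gpc3 was at 0.238 CPM, H19 had 6 UMIs and Igf2 had 2, whereas Hmga2 was at 1037 CPM and Igf2bp2 at 59.0.

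ECs held most of the Alb transcripts, 455 of 727 UMIs (62.6%). Alb stood at 5.73, 2.01 and 8.09 CPM in control ECs and at 13.9, 4.64 and 5.05 CPM in stress ECs. Stress mouse 1 was highest and control mouse 2 lowest, and the groups overlapped. The Alb UMIs were scattered over 395 of 11433 ECs (3.45%, exact 95% interval 3.13% to 3.81%). They were spread over the EC clusters, at 9.46 CPM in cluster 2, 7.13 in cluster 8, 9.96 in cluster 15 and 6.03 in cluster 18, and were lowest in cluster 16 at 1.72 CPM, the cluster with the highest Afp of the ECs. Of the 1077 UMIs of the 7 genes in ECs, Alb made up 42.2%, Apoa2 15.5%, Apoa1 and Ttr 11.6% each, Fgb 10.7%, Fga 5.85% and Tm4sf4 2.51%. At least 1 of the 7 was present in 5.46%, 4.89% and 10.7% of control ECs and 12.7%, 6.46% and 7.09% of stress ECs. Whether these UMIs are free RNA or belong to the cells was not tested.

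A few cells held many UMIs of the 7 genes at once. A limit of 10 UMIs, set after the values were seen, gave 30 of 58794 cells (0.0510%), which carried 1228 of the 3339 UMIs (36.8%). Limits of 5, 8, 12 and 20 UMIs gave 39, 30, 29 and 19 cells. These 30 cells held 71.3% of all Ttr, 52.9% of Fga, 48.0% of Fgb, 34.4% of Tm4sf4, 28.9% of Apoa2, 22.8% of Alb and 11.0% of Apoa1. Of the members outside the 7, they held 30.3% of Cp, 3.43% of Trf and 2 of the 69074 Afp UMIs. Their median was 6732.5 UMIs, and 8 were called doublets. By annotation, 12 were monocytes, 8 HSCs, 6 tumor cells and 4 ECs.

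The 30 cells differed among themselves in which members they held. Sox9, a transcription factor of bile duct and progenitor cells, was present in 23. Of these 23 cells, 22 held Tm4sf4, 22 held Cp, 22 held Spp1, a secreted matrix protein made by bile duct cells and some macrophages, and 17 held Epcam. Tm4sf4 made up 27.3% of their UMIs of the 7 genes and Apoa2 0.555%. In the 7 cells without Sox9 no Tm4sf4 was seen, Apoa2 made up 33.9%, and all 7 held Serpina1a, the plasma antitrypsin of hepatocytes. These 7 were 4 tumor cells, 2 ECs and 1 monocyte by annotation. The limit used the members' own UMIs, so the member values describe the selection, while Sox9, Epcam, Spp1 and Serpina1a were not part of it.

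**Figure D3:**
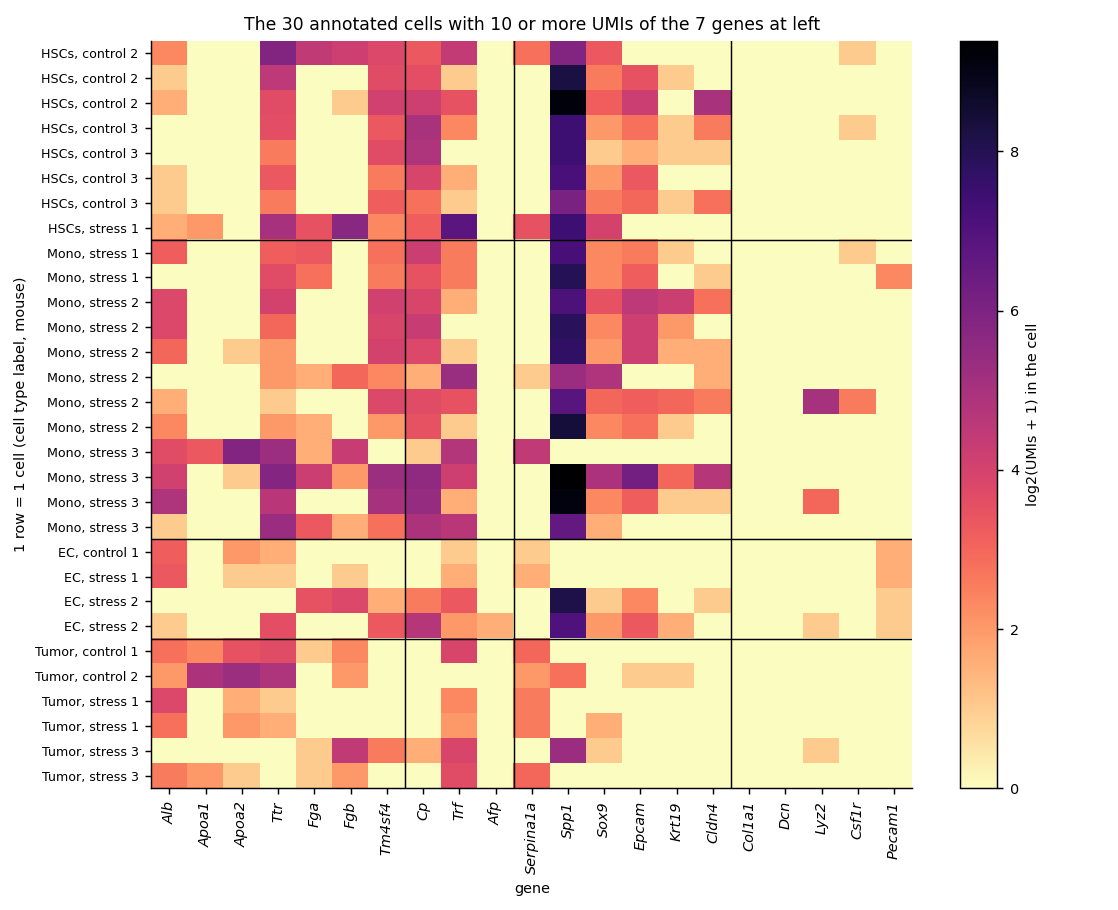
The 30 annotated cells with 10 or more UMIs of the 7 genes, 1 row per cell labeled by its annotated type and mouse, and 1 column per gene, with the 7 genes at the left and other members and markers to the right. Color gives log2(UMIs + 1). The rows of HSCs and of most monocytes hold Tm4sf4, Cp and Sox9 together, while rows without Sox9 hold Apoa2 and Serpina1a.

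In the HSCs class, these cells made up nearly the whole signal of the 7 genes. The class had 0, 179 and 68 UMIs of the 7 (control) and 102, 0 and 0 (stress), 349 in all. Alb was at 0, 101 and 25.9 CPM in control mice and 4.72, 0 and 0 CPM in stress mice. The 101 CPM was its highest level in a single mouse of any type. Pooled over mice, Alb was lower in HSCs (5.60 CPM) than in ECs (6.27 CPM). Ttr was at 0, 1322 and 389 CPM in control mice and 73.2, 0 and 0 CPM in stress mice. Tm4sf4 was at 0, 589 and 467 CPM in control mice and 9.45, 0 and 0 CPM in stress mice. The 3 mice with any signal were those with such cells, 3 of 6 HSCs in control mouse 2, 4 of 8 in control mouse 3 and 1 of 26 in stress mouse 1. All 3 such cells of control mouse 2 were called doublets, and they held all 179 UMIs of that mouse. None of the other such HSCs was called a doublet. Without the 8 cells, 3 UMIs of the 7 genes remained in 120 HSCs, 2 of Tm4sf4 in control mouse 3 and 1 of Apoa1 in stress mouse 1.

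The label of those 8 cells was checked against markers of stellate cells. None of the 8 held a UMI of Col1a1, Dcn, Lrat, Des, Pdgfra or Pdgfrb. Of the other 120 HSCs, 119 held Col1a1, the main collagen chain, and 117 held Dcn. Sox9, Spp1, Anxa4, Cp, Tm4sf4 and Ttr were each present in all 8, and Epcam in 6. Sox9 was present in 35 and Spp1 in 88 of the other 120. These 8 cells thus lack the markers that the HSCs label stands for, and HSC levels of Trf, Cp and the 7 genes are given here with and without them.

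Among monocytes, cells over the limit came from stress mice. The 12 cells were 2, 6 and 4 in stress mice 1, 2 and 3, and none were found in control mice. They held 607 of the 691 UMIs of the 7 genes in 6260 monocytes. Sox9 was present in 11 of the 12, Spp1 in 11 and Epcam in 9. The macrophage genes Adgre1, C1qa, C1qb and C1qc were present in none of the 12, and Lyz2 and Csf1r in 2 each. Among the other 6248 monocytes, 92.5% held Lyz2, 60.4% held Csf1r, 54.5% held Spp1 and 4 cells held Sox9.

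Stress and control mice were compared by summing UMIs per mouse and cell type and testing all genes with edgeR's quasi-likelihood test, with Benjamini-Hochberg adjustment over all genes of that cell type. In monocytes 6 members passed the filter on low counts and 3 were called, with 0.122% of 12251 tested genes called. The members called were Alb, Cp and Tm4sf4, all higher in stress mice, a direction in which 0.106% of the tested genes were called. Alb, Tm4sf4 and Ttr had nearly no UMIs in control mice, and they and Cp passed the filter through the stress mice, so a difference was built into their being tested. The calls therefore support nothing, and folds of Alb, Cp, Tm4sf4 and Ttr are given as descriptions.

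Alb had 0, 2 and 1 UMIs in control monocytes and 12, 43 and 59 in stress monocytes, a log2 fold change of 4.32 ± 0.54 (SE, n = 3 mice per group). As a ratio of pooled CPM, with the control mice at 3 UMIs, this is 21.2-fold, with an exact 95% counting interval of 7.07 to 104. Cp had 3, 16 and 3 UMIs in control monocytes and 41, 96 and 150 in stress monocytes (log2 fold change 2.99 ± 0.34, edgeR adjusted p = 0.0338). Tm4sf4 had 0, 2 and 0 UMIs in control monocytes and 13, 72 and 82 in stress monocytes (log2 fold change 5.37 ± 0.68). With the control mice at 2 UMIs, the ratio of pooled Tm4sf4 CPM was 46.5-fold, with an exact 95% counting interval of 12.7 to 387. In all 3 genes every stress mouse was above every control mouse. Ttr had no UMI in control monocytes and 23, 35 and 154 in stress monocytes, at least 39.4-fold higher against 3 UMIs over the control group, and was not called. The 2 intervals and the bound for Ttr cover counting error only, as if each UMI were independent. They leave out the spread between mice and between cells, although 88.9% of Alb and 89.3% of Tm4sf4 UMIs lay in the 12 cells.

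The monocyte calls of the members were not kept when the 12 cells or most single mice were left out. Leaving out control mouse 2 left 2 of the 3 calls, and leaving out any other mouse left 0. The log2 fold changes then ranged from 4.04 to 4.65 for Alb and 2.74 to 3.57 for Cp, and from 4.97 to 8.30 for Tm4sf4, the last without control mouse 2, which held the 2 control UMIs. Without the 12 cells, Alb had 0, 2 and 1 UMIs (control) and 4, 4 and 2 (stress), and Tm4sf4 0, 2 and 0 against 2, 7 and 7. Neither then passed the filter. The 12 cells were chosen by the UMIs of the 7 genes, so this fall in Alb and Tm4sf4 was fixed by the choice. Cp was not among the 7 genes. All 12 cells held Cp, with 69.6% of its monocyte UMIs, so its fall is not free of the choice either. Cp kept 3, 16 and 3 UMIs against 13, 26 and 33, with a log2 fold change of 1.08 ± 0.42 and an edgeR adjusted p of 0.374. Of the 15 genes called in monocytes, the other 12 were also called without the 12 cells. Leaving out all called doublets, which included 3 of the 12 cells, also left no member called in monocytes, with an edgeR adjusted p of 0.122 for Cp. With the replicate number as a block in the edgeR model, 205 genes rather than 15 were called in monocytes (1.67% of those tested), and Ttr was called beside Alb, Cp and Tm4sf4.

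HSCs and monocytes as 1 class did not separate the groups, whereas all annotated cells did. In HSCs and monocytes together, the 7 genes summed to 0.357, 22.7 and 18.4 CPM in control mice and 42.6, 18.4 and 30.4 CPM in stress mice, so control mouse 2 was above stress mouse 2. Over all annotated cells they summed to 1.57, 2.86 and 1.97 CPM (control) and 4.46, 3.93 and 5.50 CPM (stress). Without the cells over the limit, 245, 249 and 300 UMIs remained (control) against 511, 429 and 377 (stress). Every stress mouse was above every control mouse in both, and these sums were not tested. The sums also depend on the mix of cell types. Tumor cells, at 1.30 CPM of the 7 genes against 14.8 in ECs, held 484969068 of 558251856 UMIs in control mice. In stress mice they held 362027661 of 466063319. Level and mix cannot be told apart in such sums. The cells over the limit numbered 0, 3 and 4 in the 3 control mice and 3, 6 and 4 in the 3 stress mice, 7 of 2454 cells (0.285%) against 13 of 3934 (0.330%). In control mice these were all annotated as HSCs, and in stress mice 12 of 13 as monocytes. Over all annotated cells they numbered 2, 4 and 4 (control) and 6, 8 and 6 (stress). The part that this annotation plays in the monocyte result beyond these values was not tested.

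**Figure D4:**
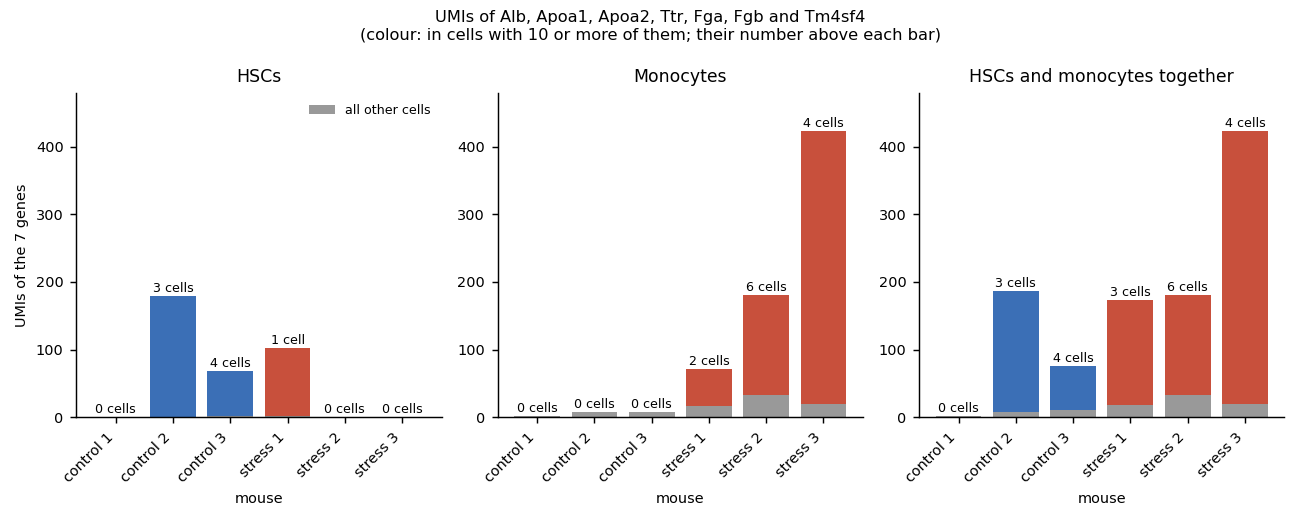
UMIs of the 7 genes (y axis) in each mouse (x axis) for HSCs, for monocytes and for both together. The colored part of a bar is held by cells with 10 or more of these UMIs, whose number stands above the bar, and the rest by all other cells. The colored cells sit in HSCs in control mice 2 and 3 and stress mouse 1, and in monocytes in the 3 stress mice.

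In tumor cells 9 members passed the filter and 1 was called, with 21.4% of 18856 tested genes called. Tm4sf4 was at 0.217, 0.422 and 0.172 CPM in control mice and 0.549, 0.901 and 1.03 CPM in stress mice, and every stress mouse was above every control mouse. It rose with a log2 fold change of 1.47 ± 0.37 (edgeR adjusted p = 0.0314), and the call was lost when control mouse 1, control mouse 3, stress mouse 2 or stress mouse 3 was left out (edgeR adjusted p = 0.0961, 0.103, 0.0854 and 0.0923). The count of 1 of 9 is below the share of all genes called. Trf was at 0.574, 0.613 and 0.382 CPM in control mice and 0.708, 1.12 and 1.76 CPM in stress mice, and the estimate of 1.04 ± 0.34 (log2) missed the threshold in edgeR (adjusted p = 0.0651) but passed it in DESeq2 (adjusted p = 0.0220). Afp had a log2 fold change of 0.19 ± 0.19 (edgeR adjusted p = 0.505). Fgb had 1.64 ± 0.73 (edgeR adjusted p = 0.145) and Alb 1.22 ± 0.69 (edgeR adjusted p = 0.243). Fgb passed the filter through the stress mice alone, so a difference was built into its being tested. In stress mouse 3, 21 of the 28 Fgb UMIs lay in 1 cell. Leaving out single mice gave 0.92 to 2.14 for Fgb, lowest without stress mouse 3, and 0.0077 to 1.65 for Alb, lowest without stress mouse 1. The remaining members ranged from -0.85 for Ttr to 0.26 for Apoa1. With single mice left out, Ttr ranged from -1.56 to -0.18 and Apoa1 from 0.0043 to 0.52. For control mouse 2, 28 of 32 Ttr UMIs lay in 1 cell over the limit, and for control mouse 1, 12 of 18. Without the cells over the limit, Ttr stood at 0.0352, 0.0264 and 0.0369 CPM (control) against 0.0939, 0.0584 and 0.0289 CPM (stress). The fall of Ttr was thus not seen without them, and only stress mouse 3 lay within the control range. Fga did not pass the filter.

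In ECs 8 members passed the filter and none was called by edgeR or DESeq2, with 0.213% of 14090 genes called by edgeR. Only Trf had an unadjusted p under 0.05. Trf was at 5.09, 4.79 and 4.56 CPM in control mice and 8.03, 8.06 and 8.11 CPM in stress mice. The groups were apart with little spread, and the log2 fold change was 0.72 ± 0.16 (edgeR adjusted p = 0.133). Cp had a log2 fold change of 1.51 ± 0.66 (edgeR adjusted p = 0.328), with 53 of its 84 UMIs of stress mice in stress mouse 2. With single mice left out, that of Cp ranged from 0.53 to 1.88. Alb had 0.55 ± 0.60 (edgeR adjusted p = 0.687), and without stress mouse 1 its sign turned to -0.15. In the other 5 types tested only Trf and Afp passed the filter and neither was called. Over all 6 types other than tumor cells and ECs, 0.804% of tests were calls, and the 3 monocyte calls with the limit given above were the only ones among members.

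**Figure D5:**
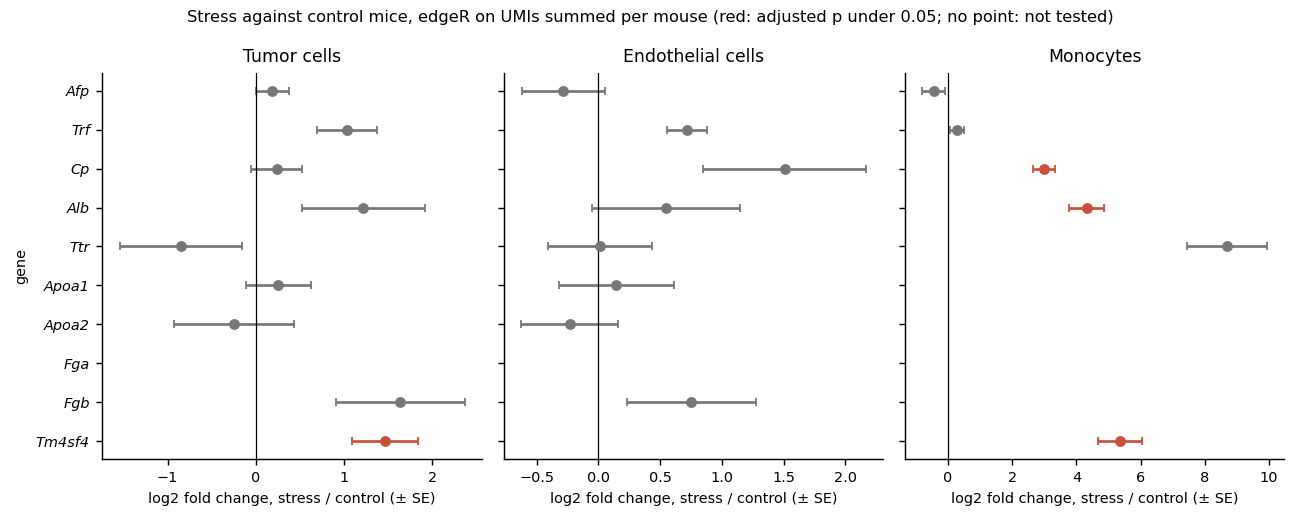
Log2 fold change of stress over control mice (x axis) with its SE for each member (y axis) in tumor cells, ECs and monocytes, from edgeR on UMIs summed per mouse. The SE was derived from the F statistic of the test. Red points passed an adjusted p of 0.05 and genes without a point were not tested. Tm4sf4 is red in tumor cells, and Alb, Cp and Tm4sf4 are red in monocytes.

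Further hepatocyte genes were mostly low in tumor cells. The 28 other plasma protein genes had a median level of 0.0673 CPM there. Of these, 15 were tested in tumor cells, 2 rose and none fell, with a median log2 fold change of 0.34 against -0.01 over all genes tested, of which 12% rose and 9.46% fell. Serpinc1, the clotting inhibitor antithrombin, was at 1.21, 2.02 and 1.32 CPM in control mice and 3.96, 3.94 and 4.12 CPM under stress (log2 fold change 1.26 ± 0.21, edgeR adjusted p = 0.00855). Apoh, a phospholipid-binding plasma protein, had a log2 fold change of 0.77 ± 0.22 (edgeR adjusted p = 0.0471). Of 26 metabolic genes, 12 were tested and 2 were called, both higher in stress mice. Among them, G6pc, the enzyme that releases glucose from the liver, had 60 UMIs in all tumor cells, with 0, 0.00659 and 0 CPM in control mice and 0.152, 0.175 and 0.164 CPM in stress mice. It passed the filter on low counts through the stress mice alone, so a difference was built into its being tested. With the control mice at 1 UMI, the ratio of pooled CPM was 79.0-fold, with an exact 95% counting interval of 13.6 to 3174. That interval covers counting error only and leaves out the spread between mice.

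The counts that follow stand against the 21.4% of all genes called in tumor cells. Of 22 transcription factors of hepatocytes, 15 were tested in tumor cells and 2 were called, both higher in stress mice. Among them, Ppara, which drives fat burning, was at 0.0176, 0 and 0.0246 CPM in control mice and 0.130, 0.133 and 0.183 CPM in stress mice. Like G6pc, it passed the filter through the stress mice alone. Of 16 oncofetal genes 9 were tested, Lin28b, an inhibitor of let-7 maturation, rose by 0.94 ± 0.21, and Igf2bp2 and Hmga2 fell by 0.33 and 0.28. All 13 genes of iron and copper handling were tested and 2 fell, the copper-dependent ferroxidase Heph, a relative of Cp, by 1.21 ± 0.20 (edgeR adjusted p = 0.00883) and Fth1 by 0.50 ± 0.15 (edgeR adjusted p = 0.0470). Heph was at 3.66, 2.71 and 3.19 CPM in control mice and 1.72, 1.51 and 1.31 CPM in stress mice. Of 15 acute phase genes 12 were tested and 1 fell, Stat3, by 0.62 ± 0.13. In ECs none of the genes of these lists was called by edgeR. Markers of other cell types also moved in tumor cells. Of 7 endothelial markers, all tested, Pecam1 rose by 1.50 ± 0.18 and Eng fell by 0.46 ± 0.13. Of 15 stellate markers tested, Colec11 and Tagln rose by 1.69 ± 0.32 and 1.18 ± 0.31 and none fell, and of 7 bile duct markers tested, Anxa4 fell by 0.40 ± 0.092. The 4 erythroid markers had a median log2 fold change of -3.82 and the 4 tested NK/T markers one of 0.94, and none of these 8 was called. Their part in these values was not tested. G6pc and Ppara are left aside here, since a difference was built into their being tested. Of the other genes named as called in these lists, Serpinc1, Heph and Pecam1 kept the call whichever mouse was left out. Colec11 lost it without control mouse 3. Apoh, Lin28b, Igf2bp2, Hmga2, Fth1, Stat3, Eng, Tagln and Anxa4 lost it in at least 4 of the 6 cases, control mouse 3, stress mouse 2 and stress mouse 3 among them for each gene.

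Genes with the pattern most like a member were sought by Pearson's r of log2(CPM + 1) over 57 combinations of cell type and mouse among 19262 genes, as a description of points that share libraries and depth. For Afp these were Hddc3 (r = 0.914), Wdr55 (0.898), Lyar (0.897), Gm7324 (0.897) and Gchfr (0.897). For Alb they were G530011O06Rikx (0.847), Ushbp1 (0.805), Itih3 (0.804), Ccdc152 (0.801) and Prox1 (0.796). Between members, r was 0.89 for Ttr and Fga, 0.87 for Fga and Fgb and 0.83 for Ttr and Fgb, and -0.66 for Trf and Afp.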

How the data were processed

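Single-cell libraries were made from the tumor tissue of 6 mice by the authors, 1 per mouse, and the deposited matrices hold raw UMI counts per gene and cell, aligned to mm10 per the labels and counted with Cell Ranger 9.0.0 (control) or 7.1.0 (stress) per the file headers. Cell types and clusters were those of the deposited annotation. The 10 members and the gene lists were chosen with earlier results of these data known. The genes named are all members, of each list at most 4 genes called in tumor cells or ECs by size of change, and the 5 genes most like Alb and Afp (pseudocount 1, at least 100 UMIs). Genes named to describe marker content, iron handling or transcription factors were picked with their values in view. Some genes of these lists are not reported here.

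Counts were summed per mouse for the 8 cell types with at least 10 cells in every mouse and compared by the quasi-likelihood test of edgeR 4.0.16 (R 4.3.3, low counts removed by filterByExpr, TMM, Benjamini-Hochberg, threshold 0.05), after the step was tested on simulated data. The SE of an edgeR log2 fold change was derived from the test, as its absolute value over the square root of the F statistic. HSCs and neutrophils were not tested. DESeq2 1.42.0, another normalization, no filter, a replicate block, leaving out each mouse, and leaving out doublets called by Scrublet (scanpy 1.11.5) were alternatives. Cells holding 10 or more UMIs of the 7 genes were left out as an alternative added after seeing the data. Shares of cells were repeated after thinning cells to 1000 UMIs. Cells were not used as replicates, and p-values measure the spread between 3 mice per group.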

Additional observations from a re-analysis of the deposited data

Results flagged for a closer look

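The 2580 barcodes outside the annotation were in no comparison, and their member levels in some stress mice lay above those of all control mice. These barcodes had a median of 45.2% mitochondrial UMIs, and 2157 of them had over 20%. Alb stood at 2.76, 0.352 and 1.06 CPM in stress mice 1, 2 and 3, against 0, 0 and 0.584 CPM in the control mice, so stress mouse 2 was below control mouse 3. In control mice 1 and 2, 3 UMIs, the limit that a count of 0 allows, would be 2.32 and 0.818 CPM, so control mouse 1 is not shown to be below stress mouse 3. In annotated cells of stress mouse 1 Alb was at 1.42 CPM. The 7 genes Alb, Apoa1, Apoa2, Ttr, Fga, Fgb and Tm4sf4 summed to 6.01, 2.73 and 2.60 CPM in stress mice 1, 2 and 3 and to 0.774, 1.64 and 1.31 CPM in the control mice. Stress mouse 1 also had 2 of these barcodes with 10 or more UMIs of the 7 genes. Afp was at 69.9, 102 and 74.8 CPM in stress mice 1, 2 and 3 and between 52.7 and 88.4 CPM in the control mice, so stress mouse 2 alone was above that range, and in annotated cells of stress mouse 2 it was at 89.6 CPM. These differences were not tested.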

How the results depend on the processing

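Of 10 members, 1 was called in tumor cells, with 2 under DESeq2 and 0 to 2 when each mouse was left out. In ECs 0 were called under every alternative. In the other 6 types the count of 3 became 6 without the filter on low counts, 0 without called doublets, 0 without the cells holding 10 or more UMIs of the 7 genes, and 0 to 2 when each mouse was left out. Of the list genes, 17 were called in tumor cells, with 27 under DESeq2, 37 with the replicate block, and 7 to 42 when each mouse was left out, 42 being without control mouse 2. Over all genes, the replicate block called 5088 in tumor cells, 131 in ECs and 205 in monocytes, DESeq2 4992, 425 and 180, no filter 4013, 107 and 214, against 4041, 30 and 15. Deviations of same-numbered mice correlated at 0.50, 0.39 and -0.13 in tumor cells and at 0.48, 0.42 and 0.15 in monocytes, the only 1 of the 8 types with every pair over 0.1. There stress mouse 3 still correlated more with control mouse 2, at 0.19. Whether the numbers pair the mice is thus not settled. Signs turned for Apoa2 in tumor cells (0.012 with the replicate block, 1.03 without the cells over the limit, -0.74 to 0.77 leaving out mice), Cp in tumor cells (-0.018 to 0.39 leaving out mice), and in ECs for Ttr (-0.017 with the replicate block, -0.30 without doublets, -0.24 without the cells over the limit, -0.28 to 0.33 leaving out mice), Alb (-0.15 to 1.02), Apoa1 (-0.24 to 0.54), Apoa2 (-0.51 to 0.17) and Afp (-0.58 to 0.035). None of these was called, and the cause was not tested. Log2 fold changes under alternatives kept direction and side of the threshold in 372 cases, lost the threshold in 80, passed it anew in 5 and turned sign in 15. With 3 mice per group and 0 to 3 UMIs of Alb or Tm4sf4 in control monocytes, depth limits those levels, and Cell Ranger version and stress cannot be told apart.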
